A study of Saccharomyces cerevisiae with 104 samples.

Results

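The small nucleolar RNAs (snoRNAs) and spliceosomal small nuclear RNAs (snRNAs) of budding yeast were described in 4 RNA-seq libraries. They were taken as every row of the gene tables with an identifier beginning snR, plus LSR1. This gave 82 of 7108 rows in each table. The rule itself uses identifiers and no measured values, but it was chosen with earlier results of these data known. All 82 matched RefSeq genes by symbol with the same start and end, 76 of them annotated as snoRNA and 6 as snRNA.

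The study concerns stalling of RNA polymerase II in Saccharomyces cerevisiae under a short hydrogen peroxide stress. Its series holds 100 ChIP-exo samples, not analysed here, and 4 RNA-seq libraries of total RNA. The labels give all of them the same growth at 25 °C and the same exposure to 0.3 mM H2O2 for 6 min, and name no strain, untreated control or replicate for the RNA-seq. Their extraction text describes chromatin immunoprecipitation for every sample, so how the RNA was selected and whether rRNA was removed is not given in the sources used here. The libraries are therefore called 1 to 4, numbers that only name them, each is described on its own, and no value has a replicate error or a test.

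snoRNAs are stable nuclear RNAs that work on ribosomal RNA (rRNA) precursors. Box C/D snoRNAs pair with the precursor and place ribose methyl groups, box H/ACA snoRNAs direct the change of uridine to pseudouridine, and a few of either kind are needed for cleavage of the precursor. The spliceosomal snRNAs form the particles that remove introns from messengers. Most of these RNAs are made by RNA polymerase II and trimmed from longer transcripts, and their ends carry no stable poly(A) tail. From general knowledge of the families, 47 rows were box C/D snoRNAs, 29 box H/ACA snoRNAs and 6 spliceosomal snRNAs. Row lengths ran from 78 to 1175 bp with a median of 148 bp. The box C/D rows were short, with a median of 98 bp, and the box H/ACA rows had a median of 204 bp.

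TPM, the length-normalised abundance the authors deposited, sums to 1000000 over all rows with rRNA included. Ribosomal RNA held 45.5, 81.3, 71.8 and 85.1% of TPM in libraries 1, 2, 3 and 4, so TPM was also set against the 5989 nuclear protein-coding genes. Series of values below follow the order of libraries 1, 2, 3 and 4. The median protein-coding gene stood at 40.2, 7.50, 17.6 and 3.59 TPM with a coverage (mean read depth) of 12.8, 3.70, 8.17 and 2.26. Coverage times row length summed to 1.08, 4.89, 1.75 and 4.75 megabases over the 82 RNAs.

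Set against messengers, the small RNAs differed widely between the libraries. For every 100 TPM on nuclear protein-coding genes they held 2.57, 28.3, 8.80 and 57.02 TPM. The median small RNA stood at 63.3, 185, 96.04 and 213 TPM, which was 1.57, 24.7, 5.45 and 59.3 times the median protein-coding gene. Library 4 was thus highest and library 1 lowest. Since a ratio has 2 sides, more small RNA and fewer messenger reads cannot be told apart.

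A relative level is used for single RNAs, defined as log2(TPM + 1) minus the same value for the median protein-coding gene of that library. The pseudocount understates TPM differences of low rows. It also adds differences to their relative levels, since the reference differs between libraries while the pseudocount does not. A row at 0 stood at -5.37, -3.09, -4.22 and -2.20. The median relative level of the 82 RNAs was 0.64, 4.45, 2.38 and 5.54. In library 1, 56 of them lay above the median protein-coding gene, against 44.5% of all rows. The counts were 73 in library 2, 68 in library 3 and 76 in library 4, where 46.3, 45.5 and 46.4% of all rows lay above it. Relative levels spanned at least 2-fold over the libraries for 81 of the 82 RNAs, against 48.2% of all rows. The median span was 4.50 log2 units, against 0.97 over all rows. Other short rows spanned 2-fold about as often: 27 of 28 protein-coding genes of at most 110 bp, 35 of 40 of 111 to 150 bp and 50 of 57 of 151 to 200 bp did, and so did 275 of 275 nuclear transfer RNA genes. Their median spans were 2.36, 1.96, 2.46 and 3.40 log2 units, against 3.59, 4.60 and 5.34 for the small RNAs of those 3 length ranges. A listed 0 in every library alone passes 2-fold, by the values for a row at 0 above. Between 73 and 140 of the 275 transfer RNA genes were listed at 0 in each library. Their count and span therefore cannot be read as differences in level. The short protein-coding genes also had low median TPM, 0.79 to 8.63, so the pseudocount enters their spans too. How often other short rows differ in level is thus not decided. The count by itself does not set the small RNAs apart. It also depends on the reference: with no centring on messengers 69 of the 82 spanned 2-fold, against 92.2% of all rows, and centred on the median small RNA 63 did, against 99.5% of all rows. Library 4 held the highest relative level of 72 RNAs and library 1 the lowest of 77, and 66 followed the order 1, 3, 2, 4 from low to high. That order belongs to the ratio. A row at 0 has the same order, by the values above, and the share of all rows that follow it was not counted. From library 1 to library 4, 81 of the 82 RNAs were higher, as were 4403 of all 7108 rows. On TPM as deposited the highest value was in library 1 for 6 RNAs, in library 2 for 32, in library 3 for 21 and in library 4 for 23.

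**Figure D1:**
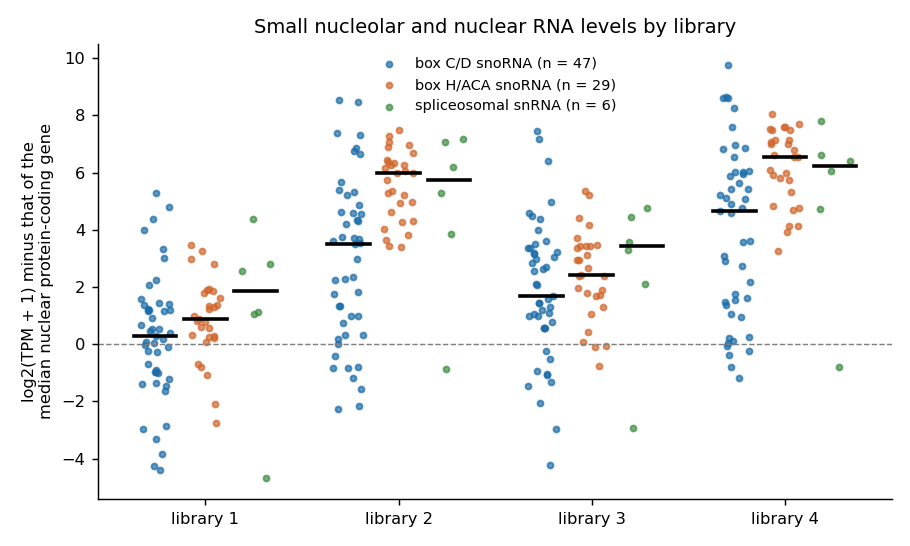
Relative level of each small RNA (vertical axis, log2(TPM + 1) minus that of the median nuclear protein-coding gene, dashed at 0) in each of the 4 libraries, coloured by class, with black bars at class medians. All 3 class medians sit lowest in library 1 and highest in library 4, and box C/D snoRNAs are the most spread.

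Between single libraries the counts past 2-fold were as follows. From library 1 to library 2, 77 RNAs were at least 2-fold higher (28.8% of all rows) and 2 at least 2-fold lower (6.49%). From library 3 to library 4, 73 were higher (25.3%) and 1 was lower (4%). From library 1 to library 3, 65 were higher (12.1%) and 1 was lower (0.521%). From library 2 to library 4, 32 were higher (5.26%) and none was lower (3%). From library 1 to library 4, 80 were higher (31.2%) and none was lower (6.08%). From library 2 to library 3, 3 were higher (5.57%) and 55 were lower (23.1%). The median differences were 3.43 log2 units from library 1 to 2, 2.77 from 3 to 4, 1.65 from 1 to 3 and 0.84 from 2 to 4. The 1 RNA lower from library 1 to library 3 was snR53, whose library 3 entry is a listed 0, and the same entry counts among the RNAs lower from library 2 to 3 and higher from 3 to 4. Comparisons that share a library share its values and are not separate observations.

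A few RNAs made up much of the signal. The 5 most abundant rows of each library held 42.4, 30.2, 48.05 and 32.9% of the TPM of all 82. snR190, a box C/D snoRNA that acts in large-subunit assembly (chromosome 10, 139761 to 139950), stood at 851, 3159, 1573 and 4012 TPM and led in libraries 2 and 4. snR40, a methylation guide (chromosome 14, 89210 to 89306), stood at 1595, 1345, 3279 and 1780 TPM and led in libraries 1 and 3. snR13, a methylation guide for the large-subunit rRNA (chromosome 4, 1402919 to 1403042), had 1136, 1432, 2681 and 1831 TPM. Both guides had their highest TPM in library 3, while snR190 had its highest in library 4. snR17a and snR10, described next, complete the 5 rows of highest median TPM.

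The snoRNAs of precursor cleavage were high in libraries 2 and 4. As a group of 5 they held 9.53, 22.3, 9.06 and 17.7% of the TPM of the 82 RNAs. The library 1 share is uncertain, since it includes the snR10 row, whose value there cannot be read as a level, as described below. U3, the snoRNA of the small-subunit processome, has near-identical copies, so its single values are uncertain. snR17a (chromosome 15, 780107 to 780596) had 662, 2978, 449 and 1784 TPM, and snR17b (chromosome 16, 281056 to 281517) had 109, 914, 119 and 576 TPM. snR17a also shares 78 bases with the reading frame IRC13 on the same strand, which had 9.17, 1.86, 12.9 and 1.28 TPM. The first copy exceeded the second 6.05, 3.26, 3.79 and 3.10 times. snR30, a box H/ACA RNA needed for 18S rRNA (chromosome 12, 198784 to 199389), had 323, 1511, 201 and 827 TPM. Each of these 3 rows had its highest TPM in library 2. snR128, known as U14 and needed for early cleavages (chromosome 10, 139566 to 139691), had 48.9, 987, 170 and 1417 TPM. Its relative levels of 0.28, 6.86, 3.20 and 8.27 spanned 7.99 log2 units, the second widest of all 82.

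The widest span, 10.80 log2 units, belonged to snR10, a box H/ACA snoRNA that acts in precursor cleavage and as a pseudouridine guide. The row (chromosome 7, 345986 to 346230) was listed at 5.08, 1325, 753 and 1211 TPM, with relative levels of -2.76, 7.29, 5.34 and 8.04. Library 1 alone was low. An uncharacterised reading frame, YGL088W, overlaps 216 of its 245 bases on the same strand (345836 to 346201), and showed the reverse with 353, 0.221, 0.0707 and 0.322 TPM. Coverage times length gave 395, 160324, 85647 and 186310 bases for snR10 and 40998, 40, 12 and 74 bases for YGL088W. The snoRNA thus held 0.955% of the bases of both rows in library 1 and 99.98, 99.99 and 99.96% in libraries 2, 3 and 4. Taken over both rows together, 395 bp, coverage was 8.21, 110, 26.5 and 209 times that of the median protein-coding gene. Library 1 was still the lowest. Reads in the shared bases cannot be assigned to one row, so 5.08 TPM cannot be read as the level of the snoRNA.

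The 6 spliceosomal rows make up the list beside the snoRNAs, and 5 of them lay above the median protein-coding gene in every library. LSR1, the U2 RNA that pairs with the branch point (chromosome 2, 680688 to 681862), was the longest row at 1175 bp and had 864, 1128, 498 and 387 TPM. The row snR19, the U1 RNA that pairs with the 5′ splice site (chromosome 14, 230105 to 230672), had 285, 616, 223 and 302 TPM. On the relative scale LSR1 stood at 4.39, 7.05, 4.74 and 6.40 and snR19 at 2.80, 6.18, 3.59 and 6.04. Both were therefore highest in library 2, unlike most of the 82 RNAs. snR14, the U4 RNA (chromosome 5, 167427 to 167586), had 89.7, 122, 78.8 and 122 TPM, and snR6, the U6 RNA of the catalytic centre (chromosome 12, 366235 to 366346), had 85.5, 333, 182 and 450 TPM. U6 is made by RNA polymerase III and joins U4 in a paired particle, and the ratio of U6 to U4 was 0.953, 2.73, 2.31 and 3.69. U5 has a long and a short form with 1 shared start, and its rows snR7-L and snR7-S overlap over all 179 bases of the short form. snR7-S (chromosome 7, 939494 to 939672) had 243, 1229, 405 and 1027 TPM and snR7-L (939459 to 939672) had 0.604, 3.67, 1.43 and 1.62 TPM. Reads of the shared bases cannot be assigned to one form, so both values are uncertain.

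Level went with row length in every library. Across the 82 RNAs, which share a library and are not independent, Spearman's rho between TPM and length was 0.435, 0.684, 0.350 and 0.569. Over the 5989 protein-coding genes it was 0.232, -0.0248, 0.0899 and -0.0588. The 36 RNAs of at most 110 bp, all box C/D, had median relative levels of -0.17, 1.80, 1.24 and 2.91. The 5 of 111 to 150 bp had 1.07, 5.30, 3.30 and 6.62. The 18 of 151 to 200 bp had 0.95, 5.52, 2.54 and 6.68, and the 13 of 201 to 300 bp had 0.99, 5.98, 2.39 and 6.56. The 5 of 301 to 500 bp had 1.89, 6.75, 3.44 and 7.13, and the 5 of over 500 bp had 2.80, 6.18, 3.44 and 6.04. In each library the largest step between neighbouring bins lay between the shortest bin and the next, and in library 1 the rows over 500 bp stood highest. Protein-coding genes of at most 110 bp, 28 rows, had medians of -2.10, -1.39, -2.14 and -1.25, and those of 151 to 200 bp had -2.60, -1.15, -1.71 and -0.68.

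**Figure D2:**
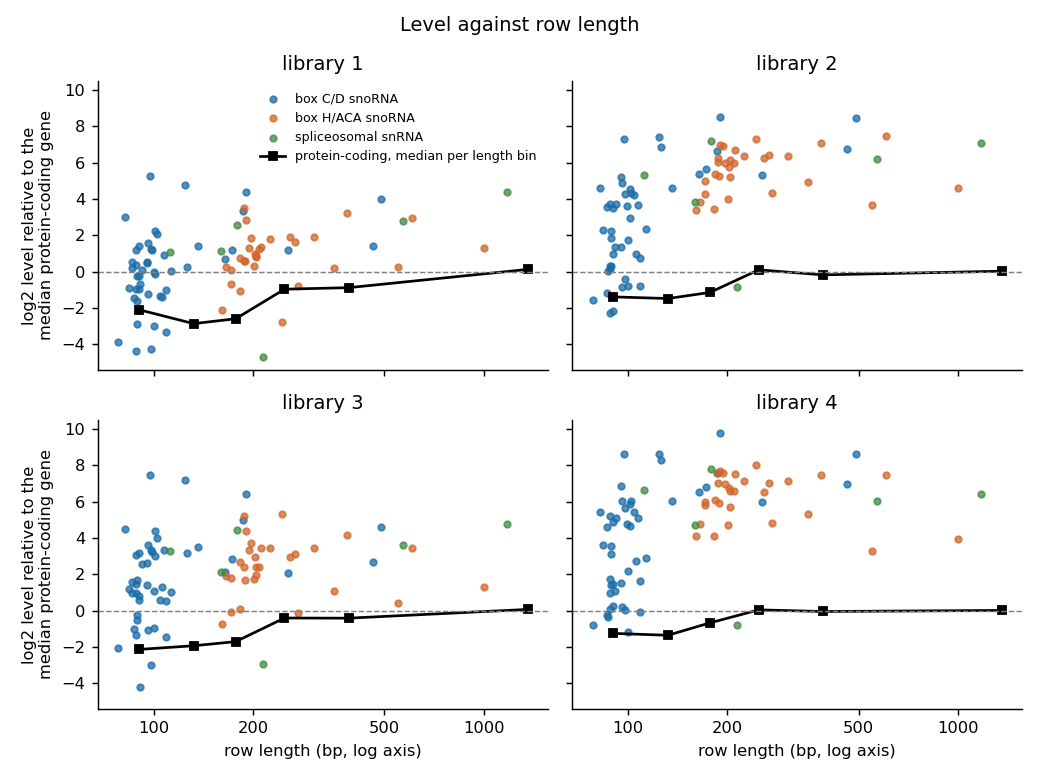
Relative level (log2) against row length (bp, log axis) in each library, 1 point per small RNA, with the median of protein-coding genes in 6 length bins as black squares. Rows of at most 110 bp scatter widely around a low median, with medians of 1.80 and 2.91 in libraries 2 and 4 against 5.52 and 6.68 for rows of 151 to 200 bp.

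The difference between libraries also went with length. From library 1 to 2 and from 3 to 4 its rank correlation with length had opposite signs for small RNAs and messengers, over unlike ranges of length. From library 1 to library 2 the median difference was 2.29 log2 units for RNAs of at most 110 bp and 4.49 for 151 to 200 bp. It was 4.75 for 201 to 300 bp, 4.46 for 301 to 500 bp and 3.37 above 500 bp. From library 3 to library 4 it was 1.47, 3.71, 3.84, 4.01 and 2.63 in the same bins. The main rise thus lay between the shortest rows and those of 151 to 200 bp, and rows over 500 bp differed less than those of 151 to 500 bp. Spearman's rank correlation between difference and length was 0.651 and 0.558 over the 82 RNAs for these 2 comparisons, and -0.486 and -0.354 over protein-coding genes. Of the 82 RNAs 72 were at most 300 bp long, while 5124 of the 5989 protein-coding genes were over 500 bp, so the 2 sets are not matched in length. From library 1 to library 3 the medians were 1.92, 1.65, 1.48, 0.91 and 0.35, and from library 2 to library 4 they were 1.17, 0.90, 0.62, 0.38 and -0.37. There both kinds of row had smaller differences at greater length, with rho of -0.307 and -0.504 for the small RNAs and -0.619 and -0.154 for protein-coding genes. Row length thus moved with the size of each of these differences, and its part in them was not tested.

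**Figure D3:**
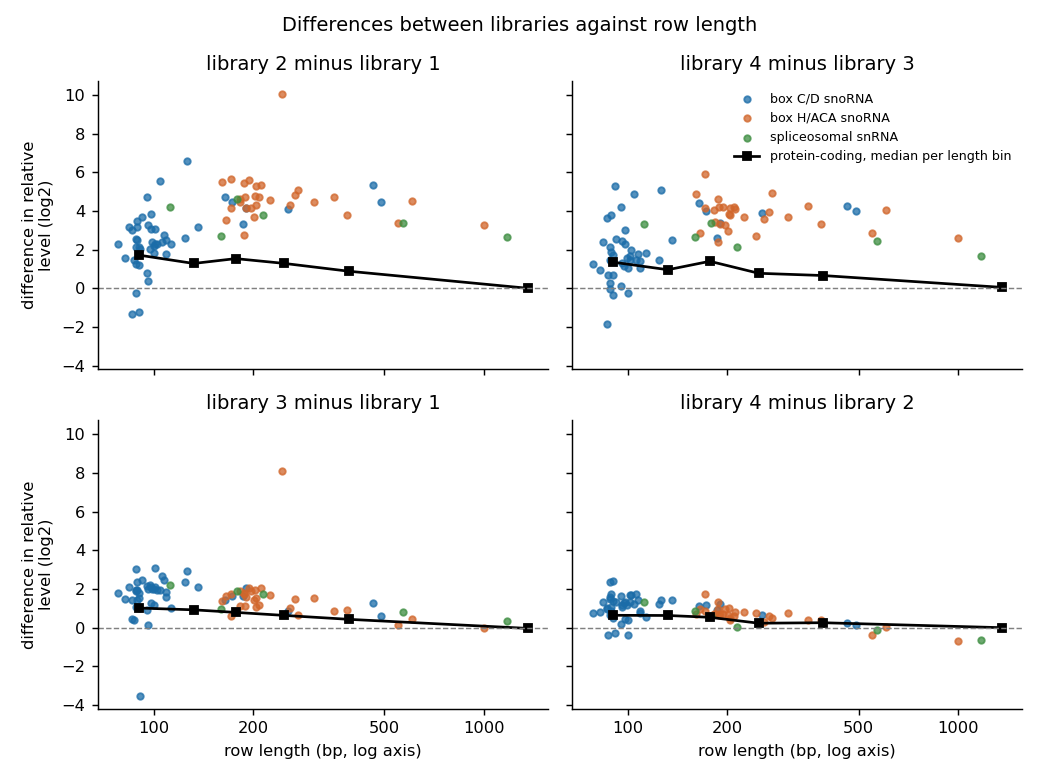
Difference in relative level (log2) between pairs of libraries against row length (bp, log axis), 1 point per small RNA coloured by class, with protein-coding medians in 6 length bins as black squares. From library 1 to 2 and from 3 to 4 most RNAs above 150 bp differ by more than 2 log2 units, while those of at most 110 bp have medians of 2.29 and 1.47.

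Class and length overlap, so the snoRNA classes were set side by side at like length. Among rows of 151 to 300 bp, the 5 box C/D RNAs differed by a median of 4.17 log2 units from library 1 to 2 and 3.91 from library 3 to 4. The 23 box H/ACA RNAs of that length differed by 4.72 and 3.95. The 36 box C/D RNAs of at most 110 bp differed by 2.29 and 1.47. In these 2 comparisons the classes at like length lay closer than short and longer box C/D RNAs did. From library 2 to 4 this did not hold, with medians of 1.14 for the longer box C/D RNAs, 0.71 for box H/ACA RNAs and 1.17 for the short box C/D RNAs. As a whole, box H/ACA RNAs held 27.6, 45.3, 25.4 and 41.01% of the TPM of the 82, and box C/D RNAs held 59.4, 44.8, 67.2 and 52.04%.

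Among the pseudouridine guides, snR80 (chromosome 5, 52150 to 52320) had 24.6, 267, 16.7 and 259 TPM and snR32 (chromosome 8, 381540 to 381727) had 61.2, 562, 97.5 and 592 TPM. Both belong to the 6 RNAs of widest span, at 6.51 and 6.42 log2 units. Each had a TPM in libraries 2 and 4 several times that in libraries 1 and 3. snR86 (chromosome 13, 762110 to 763113), the longest snoRNA row at 1004 bp, had 101.8, 207, 44.6 and 68.5 TPM. Its span of 3.32 was the narrowest of the box H/ACA class.

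The short box C/D guides did not move as one. snR41 (chromosome 16, 719148 to 719242) had 56.3, 315, 115 and 530 TPM, and snR60 (chromosome 10, 349130 to 349233) had 15.01, 157, 26.7 and 198 TPM. With spans of 6.38 and 6.80 log2 units they differed as much as the longer RNAs, although both are under 110 bp long. snR60 shares 49 bases with the reading frame YJL047C-A on the same strand, which stayed below 6 TPM in each library. At the other end, snR57 had 52.9, 8.54, 49.6 and 14.4 TPM, snR58 had 16.7, 3.75, 7.72 and 4.35 TPM, and snR78 had 13.97, 7.54, 8.05 and 2.56 TPM. Their spans of 1.58, 1.44 and 1.47 were, with that of snR38 described below, the narrowest of the 82. These rows were higher on the TPM scale in library 1 than in library 4, the reverse of snR41 and snR60. Among the shortest rows, snR59 (78 bp) had 1.86, 1.87, 3.45 and 1.63 TPM. snR67 (82 bp) had 333, 205, 415 and 195 TPM, and snR79 (84 bp) had 21.2, 39.8, 41.7 and 54.8 TPM. Length therefore did not fix the level of a short guide. snR52, a guide made by RNA polymerase III (chromosome 5, 431129 to 431220), had 41.97, 113, 107 and 156 TPM. Its relative levels of 0.06, 3.75, 2.54 and 5.09 were near those of U6 only in order, U6 standing at 1.07, 5.30, 3.30 and 6.62.

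Several box C/D RNAs are cut from a shared precursor, and members of a cluster had unequal levels. In the cluster of snR78 to snR72 on chromosome 13, 7 RNAs of 87 to 109 bp, snR77 stood at 91.3, 109, 155 and 168 TPM while snR74 stood at 0.966, 0.759, 6.36 and 3.95 TPM. The values of snR74 rested on only 27, 33, 260 and 218 aligned bases. The row snR73 of this cluster encloses a small reading frame, YMR013W-A, whose 81 bases had 100.5, 78.5, 234 and 144 TPM against 14.8, 15.9, 44.4 and 29.6 for snR73. Reads of these 2 rows cannot be separated, so the level of snR73 is uncertain. In the cluster of snR41, snR70 and snR51 on chromosome 16, the ratio of snR41 to snR51 was 0.737, 2.90, 0.610 and 3.36. snR70, 164 bp long, had 65.3, 357, 79.8 and 424 TPM and snR51, 107 bp long, had 76.3, 109, 189 and 158 TPM. In the cluster of snR57, snR55 and snR61 on chromosome 12, snR55 exceeded snR57 by 1.83, 19.5, 3.80 and 15.9 times. snR190 exceeded its neighbour snR128 by 17.4, 3.20, 9.28 and 2.83 times.

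The pair snR67 and snR53 on chromosome 5 contained the sole zero of the 328 values. snR53 (61699 to 61789) was listed at 24.3, 20.5, 0 and 8.66 TPM while snR67 (61352 to 61433) had its highest value in library 3. Such an entry may stand for an estimate that failed, and no fold is given.

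**Figure D4:**
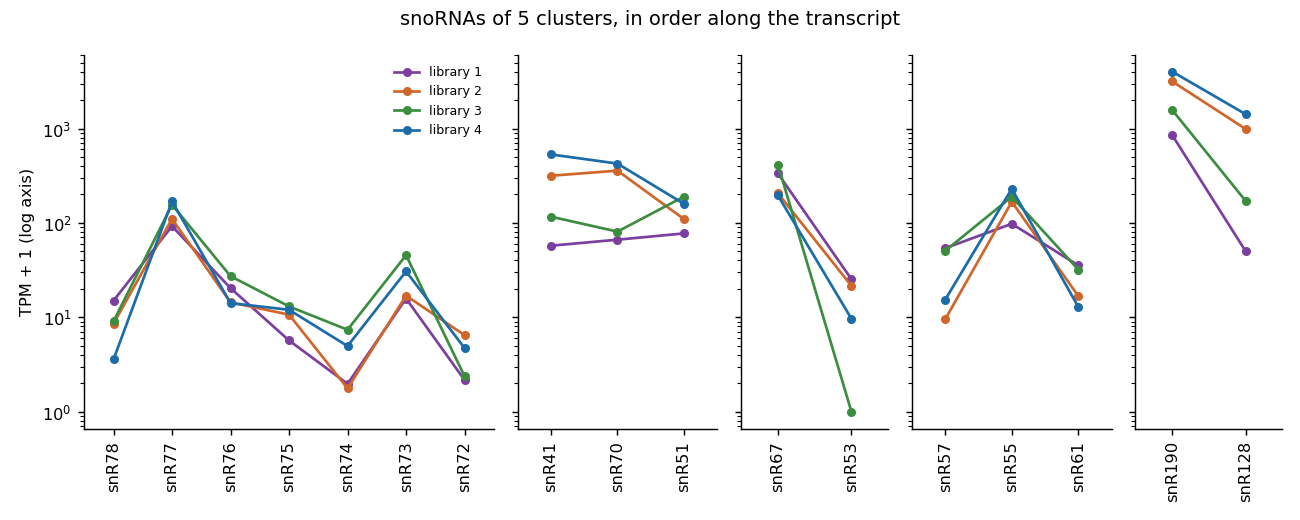
TPM + 1 (log axis) of the snoRNAs of 5 clusters in their order along the precursor, 1 line per library, where lines only join the RNAs of a library. snR77 stands far above snR74 of the same cluster in each library, and the order of the libraries changes from one RNA to the next. The values of snR74 rest on few aligned bases.

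Another 8 snoRNAs lie inside protein-coding genes on the same strand, in introns of their hosts. In library 1, 7 of the 8 stood below their host gene. Reads of an unspliced host and of its snoRNA cannot be told apart. The tables do not state whether a host's TPM is per exon length or per length of the whole row, and the size of each ratio below, including which side of 1 it falls on, depends on that. snR44, a box H/ACA RNA in RPS22B (chromosome 12, 856710 to 856920), had 105, 876, 199 and 845 TPM against 79.9, 14.8, 48.5 and 9.78 for its host. It exceeded the host 1.31, 59.1, 4.09 and 86.4 times. snR191, in the GTPase gene NOG2 (chromosome 14, 721938 to 722211), had 22.8, 168, 16.3 and 129 TPM and stood at 0.153, 9.32, 0.245 and 14.1 times its host. These are the 2 box H/ACA RNAs of the group and its longest rows, at 211 and 274 bp.

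The other 6 hosted RNAs are box C/D guides of at most 110 bp. snR18, in the elongation factor gene EFB1 (chromosome 1, 142367 to 142468), had 171, 172, 299 and 297 TPM, or 0.239, 0.723, 0.827 and 3.08 times its host. snR24, in the gene of the ribosome-bound protein ASC1 (chromosome 13, 499984 to 500072), had 12.2, 29.2, 14.9 and 53.6 TPM, or 0.0407, 0.114, 0.0979 and 0.608 times its host. Both had their highest ratio to the host in library 4. snR38, in the elongation factor gene TEF4 (chromosome 11, 283185 to 283279), had 59.01, 20.4, 49.3 and 12.3 TPM, or 0.140, 0.169, 0.303 and 0.284 times its host. It alone among the 82 spanned less than 2-fold relative to messengers, at 0.99 log2 units, and with a pseudocount of 0.1 all 82 spanned 2-fold. snR54, in the IMP dehydrogenase gene IMD4 (chromosome 13, 163535 to 163620), had 45.5, 2.78, 55.3 and 2.93 TPM, or 0.233, 0.0897, 0.745 and 0.296 times its host. snR39, in RPL7A (chromosome 7, 365163 to 365251), had 33.3, 39.3, 58.9 and 38.2 TPM, or 0.253, 0.290, 1.02 and 0.862 times its host. snR59, in RPL7B (chromosome 16, 173827 to 173904), stood at 0.0378, 0.0392, 0.200 and 0.125 times its host. RPL7A and RPL7B are near-identical, which makes their single values uncertain. The row snR59 rested on only 46, 72, 125 and 80 aligned bases.

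**Figure D5:**
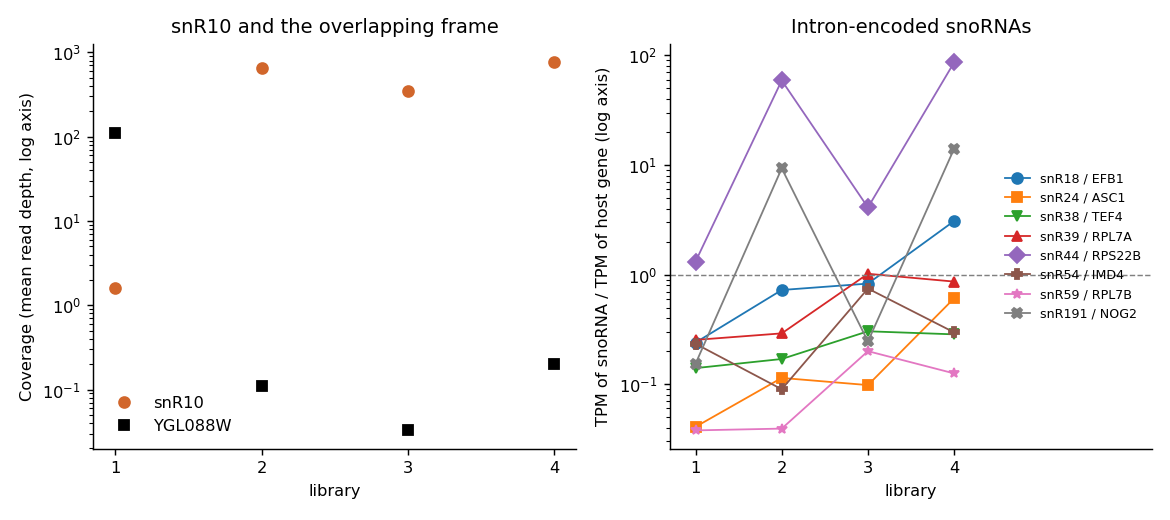
Left, coverage (mean read depth, log axis) of snR10 and of the overlapping reading frame YGL088W in each library. Right, TPM of 8 intron-encoded snoRNAs divided by TPM of their host gene (log axis, dashed at 1), lines only joining the values of 1 snoRNA. snR10 is low and YGL088W high in library 1 alone, and snR44 and snR191 exceed their hosts by 9.32 times or more in libraries 2 and 4.

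Messengers of the proteins that build and bind these RNAs had smaller median spans, on a scale that is itself centred on messengers. Of the 4 box C/D core protein genes (NOP1, NOP56, NOP58 and SNU13), 1 spanned at least 2-fold, and the 4 lay above the median protein-coding gene in each library. NOP1, the methyltransferase fibrillarin, had 74.1, 24.8, 39.7 and 8.77 TPM, with relative levels of 0.87, 1.60, 1.13 and 1.09. Of the 4 box H/ACA core genes (CBF5, NHP2, NOP10 and GAR1), 1 spanned 2-fold. CBF5, the pseudouridine synthase, had 342, 64.6, 161 and 33.1 TPM, and its relative levels of 3.06, 2.95, 3.12 and 2.89 spanned 0.23 log2 units. Among 19 processing and assembly genes 7 spanned 2-fold, and among 14 genes of the Sm and LSM rings, which bind snRNAs, 7 did. Of all 5989 nuclear protein-coding genes 2440 did, with a median span of 0.85 log2 units. The share of the Sm and LSM list lay above that of protein-coding genes, and those of the other lists lay below it. These shares are not matched for length, as the median lengths of the 4 lists were 1249.5, 544.5, 1416 and 318 bp. At 201 to 300 bp, 136 of 161 protein-coding genes spanned 2-fold, and at 301 to 500 bp 403 of 579 did. Above 500 bp 1789 of 5124 did. Over all rows the share was 48.2%. The median span was 0.71, 0.70, 0.89 and 1.02 log2 units for the 4 lists in that order, against 4.06 for box C/D snoRNAs, 5.32 for box H/ACA snoRNAs and 3.74 for spliceosomal snRNAs. Since the reference is the median protein-coding gene, smaller spans of messengers are partly built into this comparison. The small RNAs were also shorter, with a median of 148 bp. RNT1, the nuclease that cuts many snoRNA precursors, stood at -0.39, -0.51, -0.14 and -0.47, and the helicase gene SEN1 of the pathway that ends snoRNA transcripts stood at 0.87, -0.31, 0.19 and -0.72. The Sm-like gene LSM8, of the ring that binds U6, had 3.72, 2.16, 4.36 and 3.94 TPM and the widest span of the lists at 3.23.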

How the data were processed

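The 4 RNA-seq tables were used as deposited. Coverage, a signal, is the mean read depth per row, FPKM differs from coverage only by 1 factor per table, and TPM sums to 1000000 with rRNA included, per the file headers and values. The build sacCer3 and the tools SAMtools, Picard and BWA are listed, without roles, per the submitters' processing notes for both assays. The RNA-seq aligner, abundance estimator, read length and strandedness are not given in the sources used here. No read counts were used, so depth in reads is unknown and no intervals were computed.

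Nuclear protein-coding genes were taken from a RefSeq table (R64), which matched 6011 identifiers. RNA classes, clusters and hosts came from general knowledge, and overlaps from the tables' coordinates. The members and lists were chosen with earlier results of these data known. Named RNAs were the spliceosomal, cleavage, intron-encoded and clustered members, snR190, snR52, the 5 of highest median TPM, the 6 widest and 4 narrowest spans, any listed at 0, and the 3 shortest and longest. No sequence was read and no motif searched. snR10's reading frame, IRC13, YJL047C-A and YMR013W-A were described after their values were seen, as were all 4 added alternatives.

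Values were transformed as log2(TPM + 1) with no filter. A call means a span or difference of at least 2-fold, without a test. Alternatives were pseudocounts of 0.1 and 5, a minimum median TPM of 1, FPKM, bases (coverage times row span), other references and members, and each library left out. Computations used scipy 1.17.1, pandas 2.3.3 and numpy 2.4.6 under Python 3.11.15, and figures were drawn in matplotlib 3.10.9.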

Additional observations from a re-analysis of the deposited data

How the results depend on the processing

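Of 90 values under other settings, 79 moved by less than 1 SD over the libraries, or for counts by less than 1.5 times. The libraries differ widely, so that SD is a loose limit and the tally does not measure robustness. The sums in bases per 100 on protein-coding genes, given below, count as unmoved in libraries 1, 2 and 3. The correlations with coverage equal those with TPM, so they add no check. The number of RNAs spanning 2-fold was 77 to 81 with 1 library left out, 63 when libraries were centred on the median small RNA (99.5% of all rows) and 69 with no centring (92.2% of all rows). The 82 RNAs held 1.20, 3.45, 1.87 and 3.29% of all TPM in libraries 1, 2, 3 and 4, a share that was highest in library 2. In bases it became 0.358, 2.25, 0.740 and 2.51%. Without rRNA in the total the share of TPM became 2.21, 18.5, 6.62 and 22.2%, because that total is smaller. Their sum per 100 on protein-coding genes was 0.467, 6.77, 1.27 and 11.5 when counted in bases, which weight long rows more, against 2.57, 28.3, 8.80 and 57.02 in TPM. Spearman's rank correlation between level and length within box H/ACA RNAs was 0.363, 0.200 and 0.116 in libraries 2, 3 and 4, against 0.596, 0.407 and 0.584 within box C/D RNAs and 0.662, 0.328 and 0.594 over RNAs of at most 300 bp. Taking TPM against each RNA's own 4-library median measures differences between libraries and not level. That correlation was negative in libraries 1 and 3, at -0.398 and -0.635, where the longer RNAs lay lower against their median than the shorter ones. It was 0.755 and 0.426 in libraries 2 and 4. Opposed signs are partly built into this centring. The cause of the other moves was not tested. The 15 to 22 RNAs with a coverage below 10 in a library rest on the least data. No paired analysis was possible because the labels give the RNA-seq libraries no groups or replicate numbers.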

Other observations

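A list of 4 other small stable RNAs was read beside them. NME1, the RNA of RNase MRP, which also cleaves rRNA precursors (340 bp), had 157, 354, 123 and 258 TPM and relative levels of 1.94, 5.38, 2.74 and 5.82. RPR1, the RNase P RNA that trims transfer RNA (369 bp), had 435, 701, 299 and 397 TPM and relative levels of 3.40, 6.37, 4.01 and 6.44. SCR1, the signal recognition particle RNA (522 bp), had 3241, 15520, 2526 and 9441 TPM, and its relative levels spanned 4.71 log2 units. These 3 RNAs were lowest in library 1 and highest in library 4 relative to messengers, the order held by 71 of the 82 RNAs. The share of all rows with that order was not counted. TLC1, the telomerase RNA and the longest of these rows at 1301 bp, had 31.6, 22.5, 13.3 and 6.15 TPM with relative levels of -0.34, 1.46, -0.38 and 0.64. Its highest relative level was in library 2. The 275 nuclear transfer RNA genes, of median length 73 bp, had median relative levels of -1.47, -3.15 and -1.47 in libraries 2, 3 and 4. In library 1 their median was a listed 0, and between 73 and 140 of the 275 were listed at 0 in each library. Every cell uses transfer RNAs, so such entries are not read as low levels. These differences were not tested.

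The rank order of the 82 RNAs was most alike in libraries 2 and 4, with a Spearman's rho of 0.970, against 0.928 over protein-coding genes. It was 0.880 for libraries 1 and 3, where protein-coding genes gave 0.966, and 0.775 to 0.847 for the other 4 pairs. These are descriptions across genes within libraries that carry no labels of condition.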
